A study of Mus musculus with 3 samples.

Results

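The genes described here are 10 membrane carriers, pumps and receptors that move nutrients, drugs, hormones and iron across the blood-brain barrier. They are Slc2a1, Abcb1a, Abcg2, Mfsd2a, Slco1a4, Slco1c1, Slc7a5, Slc3a2, Slc16a1 and Tfrc. They were chosen by name, as 10 of the 55357 genes listed in each count matrix, and were followed in every cell class rather than in endothelium alone. Each symbol matched 1 row, and all 10 had a UMI (unique molecular identifier, 1 counted RNA molecule) in the kept cells of every library. In the order above their identifiers in the files are ENSMUSG00000028645, ENSMUSG00000040584, ENSMUSG00000029802, ENSMUSG00000028655, ENSMUSG00000030237, ENSMUSG00000030235, ENSMUSG00000040010, ENSMUSG00000010095, ENSMUSG00000032902 and ENSMUSG00000022797. Abcb1a has the close paralog Abcb1b and Slco1a4 belongs to the Slco1a family, so that similar sequence could be shared between copies, and in the GENCODE M21 annotation Slc2a1, Abcb1a, Slc7a5 and Slc16a1 overlap 3, 2, 1 and 2 other annotated genes.

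Single cells came from left perilesional brain of male C57BL/6 mice aged 6 to 8 weeks, with 1 library per group. In the TBI+IL-25 library the mice had a traumatic brain injury (TBI) and received interleukin-25 (IL-25), a cytokine of the interleukin-17 family, at 1 µg per mouse inside the first 30 minutes and then daily, with treatment given over 3 days. In the TBI+PBS library injured mice received phosphate-buffered saline (PBS) over 3 days. The sham library came from sham mice, which the series' design text calls the control group. The labels name no genotype other than the strain, do not give the injury device, the injection route or the number of animals behind a library, and one enzyme digestion and dead cell removal step was used for all 3.

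Endothelial cells of the brain are sealed by tight junctions, so small polar molecules cross the vessel wall mainly through carriers. Slc2a1 carries glucose, Slc16a1 lactate and ketone bodies, Slc7a5 with its heavy chain Slc3a2 large neutral amino acids, Slco1c1 thyroid hormone, Slco1a4 organic anions and Mfsd2a lysophospholipids that carry omega-3 fatty acids. Abcb1a and Abcg2 pump drugs and other foreign compounds back toward the blood, and Tfrc takes up iron-loaded transferrin. Several of these genes are also used by astrocytes, oligodendrocytes and blood-derived cells, for their own fuel, amino acid and iron supply.

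The libraries held 14222 TBI+IL-25, 10643 TBI+PBS and 8939 sham barcodes, of which 13532, 10299 and 8710 were kept after filters on depth, mitochondrial UMIs and doublets. Total UMIs were 61372408 in TBI+IL-25, 58148289 in TBI+PBS and 39536447 in sham, and median UMIs per kept cell were 3841, 4666 and 4111. The TBI+IL-25 library stood apart in a share of 0.803% of UMIs on the ribosomal RNA gene Rn18s-rs5, against 0.045% in TBI+PBS and 0.0369% in sham. Between 24 and 39 barcodes were shared by any pair of libraries. With 1 library per group no test between groups can be made, so the intervals below are exact Poisson intervals for levels and exact conditional binomial intervals for ratios, at 95%, and cover counting error only. They say nothing of differences between animals or between preparations.

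Cells were clustered without the 10 members, and 30 clusters were named by fixed markers as 13 classes. Also left out were the lists of other barrier solute carriers, other brain ABC transporters, light-chain partners of Slc3a2 and other glucose and monocarboxylate carriers. Genes found only in the other lists used below, such as those of receptors, transcytosis, iron and thyroid hormone, were not left out. The endothelial-like class held 50 TBI+IL-25, 226 TBI+PBS and 37 sham cells, which is 0.369%, 2.19% and 0.425% of kept cells, with median depths of 3488.5, 3902 and 3402 UMIs. All 12 endothelial markers were detected in it in each library, with summed levels of 18306, 19537 and 16522 CPM (UMIs of the gene per 1000000 UMIs of the class) in TBI+IL-25, TBI+PBS and sham. The astrocyte-like class held 6688, 4518 and 3279 cells and the microglia-like class 5531, 4593 and 5001 cells in the same order of libraries. A level in CPM is relative to the other RNA of a class, so less of a transcript per cell and more of the other RNA cannot be told apart.

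The stretches upstream of the transcription starts are shown for 4 members on which the results turn. Slc2a1, Slc16a1 and Tfrc were at least 1.5-fold higher in astrocyte-like and microglia-like cells of TBI+IL-25 than of sham. Slco1a4 had the lowest endothelial-like ratios of the members for TBI+IL-25 over TBI+PBS and over sham. The sequences are the 250 bases before an annotated start, from RefSeq on GRCm38.p6, with the core letters of the hypoxia-response element in capitals (ACGTG or GCGTG on either strand, which read CACGT or CACGC on the other). Slc2a1 lies at chr4:119108495-119108744 on the plus strand, Slc16a1 at chr3:104638414-104638663 on the plus strand, Tfrc at chr16:32608646-32608895 on the plus strand and Slco1a4 at chr6:141856221-141856470 on the minus strand. The bases just after the start were found in 1 GENCODE M21 transcript of Slc2a1 and in 0 of Slc16a1, Tfrc and Slco1a4. The starts of Slc16a1, Tfrc and Slco1a4 were thus not matched in that annotation.
Slc2a1: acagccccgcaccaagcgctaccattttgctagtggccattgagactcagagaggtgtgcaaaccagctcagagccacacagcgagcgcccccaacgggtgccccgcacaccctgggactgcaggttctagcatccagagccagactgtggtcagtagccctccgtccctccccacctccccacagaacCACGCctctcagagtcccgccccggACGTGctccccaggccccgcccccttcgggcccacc
Slc16a1: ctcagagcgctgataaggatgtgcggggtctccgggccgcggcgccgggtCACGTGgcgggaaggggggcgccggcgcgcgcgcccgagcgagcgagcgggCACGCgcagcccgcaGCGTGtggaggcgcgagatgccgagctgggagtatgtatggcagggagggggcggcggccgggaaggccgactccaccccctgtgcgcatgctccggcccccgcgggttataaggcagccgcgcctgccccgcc
Tfrc: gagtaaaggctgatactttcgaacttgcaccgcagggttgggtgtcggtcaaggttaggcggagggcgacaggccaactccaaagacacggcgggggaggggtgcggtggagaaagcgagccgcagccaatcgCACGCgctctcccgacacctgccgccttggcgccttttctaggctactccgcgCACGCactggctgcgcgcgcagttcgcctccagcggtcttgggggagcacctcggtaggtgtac
Slco1a4: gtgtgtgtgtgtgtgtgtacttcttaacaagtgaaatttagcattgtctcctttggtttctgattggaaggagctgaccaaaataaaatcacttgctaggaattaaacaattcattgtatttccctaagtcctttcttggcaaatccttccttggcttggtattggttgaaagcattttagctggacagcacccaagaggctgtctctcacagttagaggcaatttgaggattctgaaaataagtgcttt
The Slc2a1, Slc16a1 and Tfrc stretches held 2, 4 and 2 core matches, those of Slc16a1 including a pair that overlap on opposite strands, and the Slco1a4 stretch held 0. Tfrc has another annotated start in the table, at which the stretch (chr16:32608872-32609121, not printed) held 3. The Mfsd2a and Slc3a2 stretches, also not printed, held 4 and 1. Mfsd2a was lower in TBI+IL-25 than in TBI+PBS in endothelial-like, astrocyte-like and microglia-like cells. In endothelial-like cells Slc2a1, Slc16a1 and Tfrc were also lower in TBI+IL-25 than in sham, at 0.629, 0.316 and 0.37. Base composition differed along with the matches, with 66.4%, 76.4% and 64.8% G or C in Slc2a1, Slc16a1 and Tfrc against 39.2% in Slco1a4. Of the 9 members in the promoter table, 5 held a core (Slc2a1, Mfsd2a, Slc3a2, Slc16a1 and Tfrc), while 38.6% of the 32851 promoters in the table did. Members are counted as genes with a core at any of their 12 promoters, and the table as promoters, so the units differ. ACGTG alone was in 16.6% and GCGTG in 28.2% of all promoters. The amino acid response element TGATGNAA was in 3.45% of all promoters and in 0 of the 9. A match is a description of letters only. Slc7a5 is not in the table.

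All 10 members had their highest class mean in the endothelial-like cells, and the next class differed from gene to gene. Class means over the libraries with at least 20 cells set the endothelial-like level of Slc2a1 at 3157 CPM, against 394 CPM in astrocyte-like and 376 CPM in ependymal-like cells. Slco1a4 averaged 2411 CPM in endothelial-like cells and 73.8 CPM in choroid plexus-like cells, its next class. Abcb1a averaged 799 CPM in endothelial-like cells, 52.5 CPM in fibroblast-like and 40.8 CPM in T cell-like cells. Abcb1a and Slco1a4 were the members most tied to endothelium: that class gave 84.6%, 93.9% and 96.8% of Abcb1a UMIs and 72.5%, 96.2% and 90.4% of Slco1a4 UMIs in TBI+IL-25, TBI+PBS and sham. Abcb1a was at 0 UMIs in oligodendrocyte-like cells in every library, a count that allows up to 1.08, 1.38 and 6.52 CPM in TBI+IL-25, TBI+PBS and sham, taking 3 counts as the limit of a 0 rather than the Poisson interval.

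**Figure D1:**
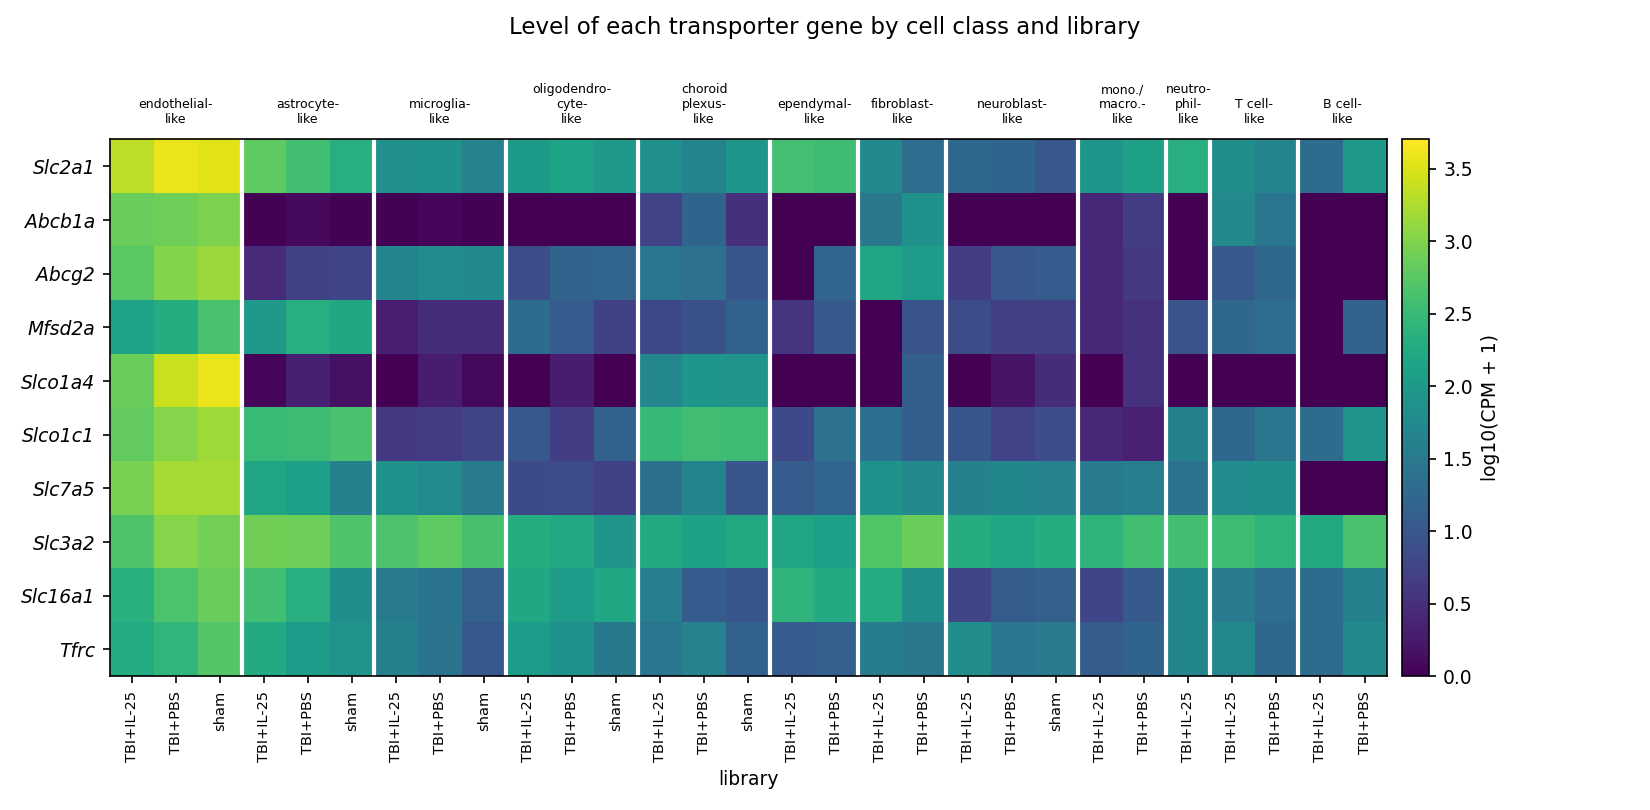
Levels of the 10 members as log10(CPM + 1) on a colour scale, with genes in rows and, in columns, each cell class and library (TBI+IL-25, TBI+PBS, sham) with at least 20 cells. The endothelial-like columns carry the highest value of every member, and Slc2a1, Slc3a2, Slco1c1 and Slc16a1 are also filled in astrocyte-like cells.

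The other members were also found in glia-like, epithelial or fibroblast-like classes, at levels from near the endothelial-like mean to far below it. Slco1c1 averaged 1064 CPM in endothelial-like cells, 364 CPM in astrocyte-like and 334 CPM in choroid plexus-like cells. For Mfsd2a the endothelial-like mean was 256 CPM and the astrocyte-like mean 156 CPM. Slc3a2, whose protein anchors several amino acid exchangers, had 794 CPM in endothelial-like, 685 CPM in astrocyte-like, 611 CPM in fibroblast-like and 499 CPM in microglia-like cells. Slc7a5 stood at 1357 CPM in endothelial-like and 104 CPM in astrocyte-like cells. Abcg2 was at 986 CPM in endothelial-like, 132 CPM in fibroblast-like and 54.8 CPM in microglia-like cells. Slc16a1 was at 457 CPM in endothelial-like cells and at 220, 219 and 142 CPM in ependymal-like, astrocyte-like and oligodendrocyte-like cells, and Tfrc at 324 CPM in endothelial-like cells and at 123 and 73.2 CPM in astrocyte-like and oligodendrocyte-like cells. Single libraries departed from these means: in TBI+IL-25, Slc16a1 was at 223 CPM in endothelial-like and 384 CPM in astrocyte-like cells and Slc3a2 at 483 and 802 CPM, and in TBI+PBS, Mfsd2a was at 196 and 207 CPM. The order of neighbouring classes was not tested, and for Slc2a1 and Slc16a1 the means of the astrocyte-like and ependymal-like classes were nearly equal.

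Endothelial-like cells were few, and most of the RNA of several members came from other classes. Astrocyte-like cells gave 94.1% of Mfsd2a UMIs in TBI+IL-25, 93.2% in TBI+PBS and 95.6% in sham. For Slco1c1 they gave 91.7%, 83.2% and 92.7%, and for Slc16a1 84.1%, 74.2% and 68%. Abcg2 came mostly from microglia-like cells, with 84.4%, 53.8% and 79.8% of its UMIs, and from endothelial-like cells with 7.86%, 39% and 12.5%. Abcb1a was at 3.24 CPM over all TBI+IL-25 cells, 15.6 CPM in TBI+PBS and 3.28 CPM in sham, where endothelial-like cells were 0.369%, 2.19% and 0.425% of cells. Slco1a4 over all cells was at 3.88, 51 and 15.1 CPM, further apart between TBI+IL-25 and sham than those shares. Inside endothelial-like cells it was at 734 CPM in TBI+IL-25 and 3962 CPM in sham. Slc16a1 over all cells was highest in TBI+IL-25 at 176 CPM, against 105 CPM in TBI+PBS and 39.3 CPM in sham.

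In endothelial-like cells the members were lower in TBI+IL-25 than in either of the other libraries. Counting a member that had at least 20 UMIs in a pair of libraries and a CPM ratio of at least 1.5-fold, 7 of 10 members were lower in TBI+IL-25 than in TBI+PBS and 0 were higher, where 23.3% and 15.7% of all genes passing the same minimum were lower and higher. Against sham, 9 of 10 were lower in TBI+IL-25 and 0 higher, beside 21.5% and 24.1% of all genes. In TBI+PBS against sham, 4 of 10 were lower (Mfsd2a, Slco1a4, Slc16a1 and Tfrc) and 0 higher, beside 16.8% and 22.3% of all genes. With median-of-ratios scaling or coarser clusters (Leiden resolution 0.5) the calls of Slco1a4 and Slc16a1 in TBI+PBS over sham ended, at 0.686 and 0.669 or at 0.749 and 0.73, and 2 of 10 were left. The median log2 ratio of the members was -0.84 for TBI+IL-25 over TBI+PBS, -1.23 for TBI+IL-25 over sham and -0.45 for TBI+PBS over sham, while that of all genes was -0.06, 0.03 and 0.01. The 3 comparisons share libraries and are not independent of each other. Summed over the 10 members the level was 6724 CPM in TBI+IL-25, 12868 CPM in TBI+PBS and 15217 CPM in sham.

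**Figure D2:**
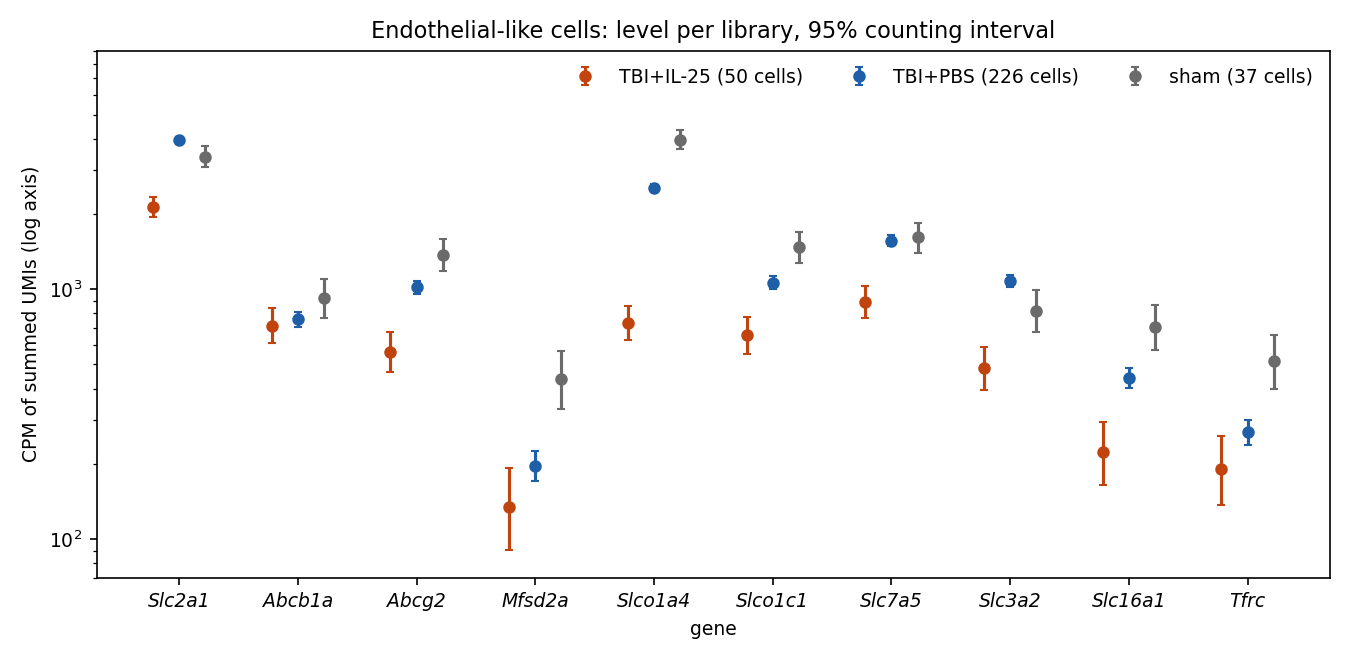
Level of each member in endothelial-like cells in CPM (logarithmic axis), with TBI+IL-25, TBI+PBS and sham side by side and bars for the exact 95% Poisson interval of the summed UMIs (50, 226 and 37 cells). Slco1a4 stands at 734, 2538 and 3962 CPM, the widest spread of the 10, while Abcb1a stands at 715, 759 and 921 CPM.

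Slc2a1, the glucose transporter GLUT1, had 460 UMIs and 2136 CPM (1945 to 2341) in TBI+IL-25, 4204 UMIs and 3940 CPM (3822 to 4061) in TBI+PBS and 442 UMIs and 3394 CPM (3084 to 3725) in sham. The TBI+IL-25 interval lay below both others, and that of TBI+PBS lay just above that of sham. The CPM ratio was 0.542 (0.491 to 0.597) for TBI+IL-25 over TBI+PBS, 0.629 (0.551 to 0.719) for TBI+IL-25 over sham and 1.16 (1.05 to 1.28) for TBI+PBS over sham. The lactate and ketone carrier Slc16a1, known as MCT1, was at 223 CPM (164 to 296) in TBI+IL-25, 441 CPM (402 to 483) in TBI+PBS and 706 CPM (569 to 866) in sham, from 48, 471 and 92 UMIs. Its 3 intervals did not overlap and followed the order of the libraries, with ratios of 0.505 (0.367 to 0.68) for TBI+IL-25 over TBI+PBS and 0.625 (0.499 to 0.79) for TBI+PBS over sham.

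The organic anion carrier Slco1a4 differed most among the members. It had 158 UMIs and 734 CPM (624 to 857) in TBI+IL-25, 2708 UMIs and 2538 CPM (2443 to 2635) in TBI+PBS and 516 UMIs and 3962 CPM (3627 to 4319) in sham. The intervals lay far apart, with ratios of 0.289 (0.245 to 0.34) for TBI+IL-25 over TBI+PBS, 0.185 (0.154 to 0.222) for TBI+IL-25 over sham and 0.641 (0.583 to 0.705) for TBI+PBS over sham. Slco1c1, the thyroid hormone carrier, was at 655 CPM (551 to 772) in TBI+IL-25, 1062 CPM (1001 to 1126) in TBI+PBS and 1474 CPM (1273 to 1698) in sham. It showed the same order with a narrower spread, at 0.617 (0.514 to 0.735) for TBI+IL-25 over TBI+PBS and 0.72 (0.618 to 0.844) for TBI+PBS over sham.

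The efflux pumps differed from each other. Abcb1a, which encodes a P-glycoprotein of the mouse, had 154 UMIs and 715 CPM (607 to 837) in TBI+IL-25, 810 UMIs and 759 CPM (708 to 813) in TBI+PBS and 120 UMIs and 921 CPM (764 to 1102) in sham. Its intervals overlapped between all pairs of libraries, and it was the one member under 1.5-fold in all 3 comparisons, at 0.942 (0.788 to 1.12), 0.776 (0.607 to 0.994) and 0.824 (0.679 to 1.01) for TBI+IL-25 over TBI+PBS, TBI+IL-25 over sham and TBI+PBS over sham. Abcg2, the breast cancer resistance protein, stood at 562 CPM (466 to 671), 1021 CPM (961 to 1083) and 1374 CPM (1180 to 1591) in TBI+IL-25, TBI+PBS and sham. These intervals did not overlap, and the ratio was 0.551 (0.452 to 0.665) for TBI+IL-25 over TBI+PBS and 0.743 (0.633 to 0.875) for TBI+PBS over sham.

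The lipid carrier Mfsd2a was at 135 CPM (90.2 to 193) in TBI+IL-25, 196 CPM (170 to 224) in TBI+PBS and 438 CPM (331 to 567) in sham, from 29, 209 and 57 UMIs. Both injured libraries lay below sham and overlapped each other. The transferrin receptor Tfrc showed the same arrangement, with 190 CPM (137 to 258), 267 CPM (237 to 300) and 514 CPM (399 to 653). For TBI+PBS over sham these were the lowest ratios of the 10, at 0.448 (0.332 to 0.611) for Mfsd2a and 0.519 (0.397 to 0.688) for Tfrc, while TBI+IL-25 over TBI+PBS gave 0.688 (0.449 to 1.02) and 0.713 (0.501 to 0.991).

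Slc7a5 and Slc3a2, the light and heavy chains of 1 amino acid exchanger, were both lower in TBI+IL-25 than in TBI+PBS. Slc7a5 was at 892 CPM (770 to 1027) in TBI+IL-25, 1566 CPM (1492 to 1643) in TBI+PBS and 1612 CPM (1402 to 1846) in sham, so that TBI+PBS and sham overlapped. Slc3a2 was at 483 CPM (395 to 585) in TBI+IL-25, 1078 CPM (1016 to 1142) in TBI+PBS and 822 CPM (673 to 993) in sham, and was highest in TBI+PBS. The ratios of TBI+IL-25 over TBI+PBS were 0.569 (0.488 to 0.661) and 0.448 (0.363 to 0.548) for the light and the heavy chain. Both chains had a UMI in 34 of 50, 197 of 226 and 29 of 37 endothelial-like cells in TBI+IL-25, TBI+PBS and sham.

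Markers of other cells also differed between the 3 endothelial-like sets. Summed pericyte markers (8 genes) were at 2559 CPM in TBI+IL-25, 1113 CPM in TBI+PBS and 345 CPM in sham, with 0, 0 and 2 genes at 0. Microglial markers (10 genes) summed to 3627, 2585 and 5827 CPM and astrocyte markers (10 genes) to 1388, 903 and 1113 CPM in the same order. Arterial markers (10 genes) were highest in TBI+IL-25 at 1049 CPM, against 240 CPM in TBI+PBS and 223 CPM in sham, and Mgp made up 729, 77.8 and 7.68 CPM of them. Of the 12 endothelial markers, 4 were higher in TBI+IL-25 than in TBI+PBS (Cldn5, Cdh5, Flt1 and Kdr) and 8 were lower, with the junction gene Cldn5 at 5670, 4605 and 3002 CPM, Egfl7 at 980, 1646 and 1374 CPM and the surface gene Ly6c1 at 2113, 4897 and 4852 CPM in TBI+IL-25, TBI+PBS and sham. The part of these differences in the member levels was not tested, except by leaving cells out. Without the cells that held 10 or more UMIs of microglial or astrocyte markers, 33 TBI+IL-25 and 188 TBI+PBS cells were left and 3 members in place of 7 were at least 1.5-fold lower in TBI+IL-25. These were Slco1a4 at 0.403 (0.331 to 0.487), Slc3a2 at 0.436 and Slc16a1 at 0.566, while Slc2a1 was at 0.702 (0.621 to 0.791), Abcb1a at 1.25 (1.00 to 1.54), Mfsd2a at 1.07 (0.666 to 1.64) and Tfrc at 0.977 (0.635 to 1.45). Without cells rich in pericyte markers the Slco1a4 ratio was 0.254. With classes set by each cell's own markers, in place of clusters, the endothelial-like set grew to 95 TBI+IL-25 and 241 TBI+PBS cells, all 10 members were at least 1.5-fold lower in TBI+IL-25 and Slco1a4 stood at 0.147. The share of all genes is given for the main setting alone (23.3% lower), so neither of these counts has its own background.

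The lower Slco1a4 level in TBI+IL-25 came with many endothelial-like cells that had no UMI of it. Cells with at least 1 UMI were 48% in TBI+IL-25, 93.4% in TBI+PBS and 100% in sham. The share expected at an even depth of 1000 UMIs per cell was 34.9%, 81.6% and 95.8%, over the 50, 202 and 31 cells with at least 1000 UMIs. In microglia-like cells, which should lack the gene, the share was 0%, 0.414% and 0.08%, at median depths of 4731, 4747 and 3914 UMIs. The median cell had 0 CPM of Slco1a4 in TBI+IL-25, 2485 CPM in TBI+PBS and 4072 CPM in sham. For Slc2a1 the share with a UMI was 100%, 97.3% and 100%, and for Abcb1a 78%, 85.4% and 83.8%, so that these members were present in most cells of every library. Mfsd2a and Slc16a1 showed graded shares, with 32%, 45.1% and 64.9% of cells for Mfsd2a and 34%, 56.2% and 75.7% for Slc16a1. A cell had a median of 6, 8 and 9 of the 10 members in TBI+IL-25, TBI+PBS and sham.

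**Figure D3:**
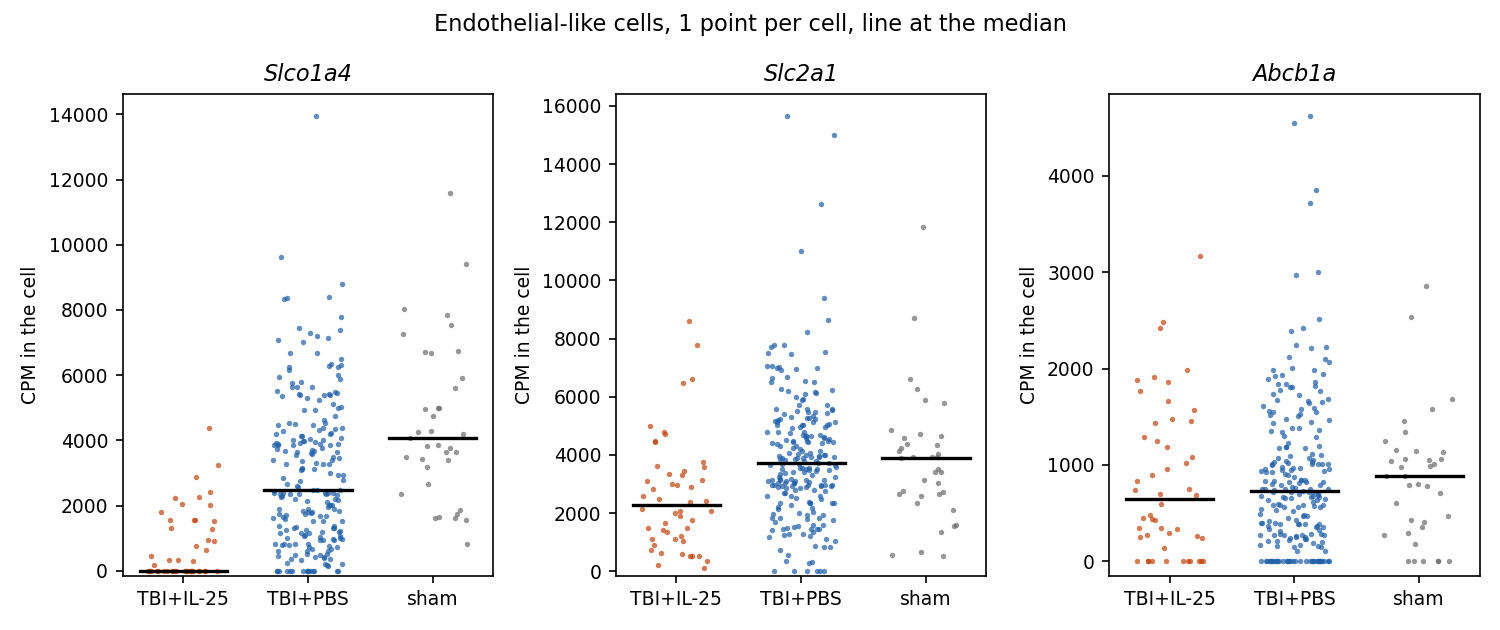
Each point is 1 endothelial-like cell and gives its CPM of Slco1a4, Slc2a1 or Abcb1a in TBI+IL-25, TBI+PBS and sham, with a line at the median. The Slco1a4 median is 0 in TBI+IL-25, 2485 in TBI+PBS and 4072 CPM in sham, while Abcb1a medians are 643, 730 and 887 CPM.

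Cells with and without Slco1a4 were then described apart. This split uses a member's own value and carries no test. With a UMI of Slco1a4 were 24 TBI+IL-25, 211 TBI+PBS and 37 sham cells, and without one 26, 15 and 0. Even among the cells with it, Slco1a4 was at 1387 CPM in TBI+IL-25, 2636 CPM in TBI+PBS and 3962 CPM in sham. In these same cells Slco1c1 was at 1071 and 1081 CPM, Mfsd2a at 193 and 200 CPM and Tfrc at 281 and 272 CPM in TBI+IL-25 and TBI+PBS, while Slc2a1 was at 2555 and 3926 CPM and Slc3a2 at 465 and 1091 CPM. Slco1c1, Mfsd2a and Tfrc were thus close between the injured libraries there, and Slc2a1 and Slc3a2 remained apart. The 26 TBI+IL-25 cells without it had 5164 CPM of Cldn5, and their Slc2a1 was at 1666 CPM, Abcb1a at 404 CPM, Slco1c1 at 187 CPM and Slc16a1 at 49.3 CPM. Microglial markers summed to 6642 CPM in them and to 940 CPM in the 24 cells with Slco1a4, and pericyte markers to 591 and 4312 CPM. By vessel markers, Slco1a4 was at 1003, 3198 and 3325 CPM in cells with more arterial than venous marker UMIs (10, 45 and 6 cells) and at 799, 2076 and 3537 CPM in cells with more venous ones (29, 112 and 16 cells). In cells with equal or no such UMIs (11, 69 and 15 cells) it was at 0 (0 to 106), 3273 and 5301 CPM. Slco1a4 was thus lowest in TBI+IL-25 in each of these sets.

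Astrocyte-like cells showed another arrangement, in which Slc2a1, Slc16a1 and both chains of the amino acid exchanger were higher in the 2 injured libraries than in sham, and Tfrc in TBI+IL-25. Compared with sham, 5 of 8 measured members were at least 1.5-fold higher in TBI+IL-25 (Slc2a1, Slc7a5, Slc3a2, Slc16a1 and Tfrc) beside 19.7% of all genes, and 2 were lower (Abcg2 and Mfsd2a) beside 37.3%. In TBI+PBS over sham, 5 of 9 were higher (Slc2a1, Slco1a4, Slc7a5, Slc3a2 and Slc16a1) beside 13.9% of all genes, and 0 were lower beside 17.1%. Between the injured libraries, 3 of 9 were higher in TBI+IL-25 (Slc2a1, Slc16a1 and Tfrc) beside 10.6% and 3 lower (Abcg2, Mfsd2a and Slco1a4) beside 27.5%. Median log2 ratios of the members were 0.97, 0.69 and 0.05 in these 3 comparisons, against -0.28, -0.06 and -0.21 for all genes.

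Among the members above trace level Slc16a1 differed most, with 384 CPM in TBI+IL-25, 205 CPM in TBI+PBS and 68.6 CPM in sham. The ratio was 1.87 (1.81 to 1.94) for TBI+IL-25 over TBI+PBS, 5.59 (5.24 to 5.97) for TBI+IL-25 over sham and 2.98 (2.78 to 3.2) for TBI+PBS over sham. Slc2a1 followed the same order at 597, 374 and 210 CPM, with 1.6 (1.55 to 1.64), 2.84 (2.74 to 2.96) and 1.78 (1.71 to 1.86). Both genes were thus higher in the injured libraries here, whereas in endothelial-like cells Slc16a1 was lower in them. Tfrc was at 184 CPM in TBI+IL-25, 106 CPM in TBI+PBS and 79.9 CPM in sham, with 1.73 (1.64 to 1.82) for TBI+IL-25 over TBI+PBS and 1.33 for TBI+PBS over sham, under 1.5-fold. Slc7a5 was at 151, 120 and 41.7 CPM and Slc3a2 at 802, 774 and 479 CPM, so that most of their difference lay between the injured libraries and sham.

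The share of astrocyte-like cells with a Slc2a1 UMI hardly differed as counted, at 57.6%, 60.6% and 53.2% in TBI+IL-25, TBI+PBS and sham. The TBI+IL-25 cells were shallower, with median depths of 2957, 4328 and 4514 UMIs. Expected at 1000 UMIs per cell, the shares were 36%, 27.2% and 19%. These even-depth shares cover only the 5451, 3864 and 2839 cells with at least 1000 UMIs, so both depth and the set of cells differ from the shares as counted. For Slc16a1 the even-depth shares were 25.7%, 14.6% and 6.66%, and for Tfrc 15.5%, 9.84% and 7.71%. Among these deeper cells the even-depth shares thus followed the same order of libraries as CPM in the whole class.

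Mfsd2a and Slco1c1, which astrocytes also carry at high level, were not higher after injury with IL-25. Mfsd2a was at 95.5 CPM in TBI+IL-25, 207 CPM in TBI+PBS and 166 CPM in sham, and TBI+IL-25 over TBI+PBS was 0.462 (0.439 to 0.487). Slco1c1 was at 311, 348 and 432 CPM, a difference under 1.5-fold in every comparison. Abcg2 was at 1.8, 4.35 and 5.02 CPM, and Slco1a4 at 0.138, 1.15 and 0.475 CPM from 3, 24 and 7 UMIs. Endothelial markers (12 genes) summed to 3.46, 12.4 and 4.95 CPM in the same astrocyte-like cells, with 3, 0 and 1 genes at 0. Their part in the trace levels of Slco1a4 was not tested.

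**Figure D4:**
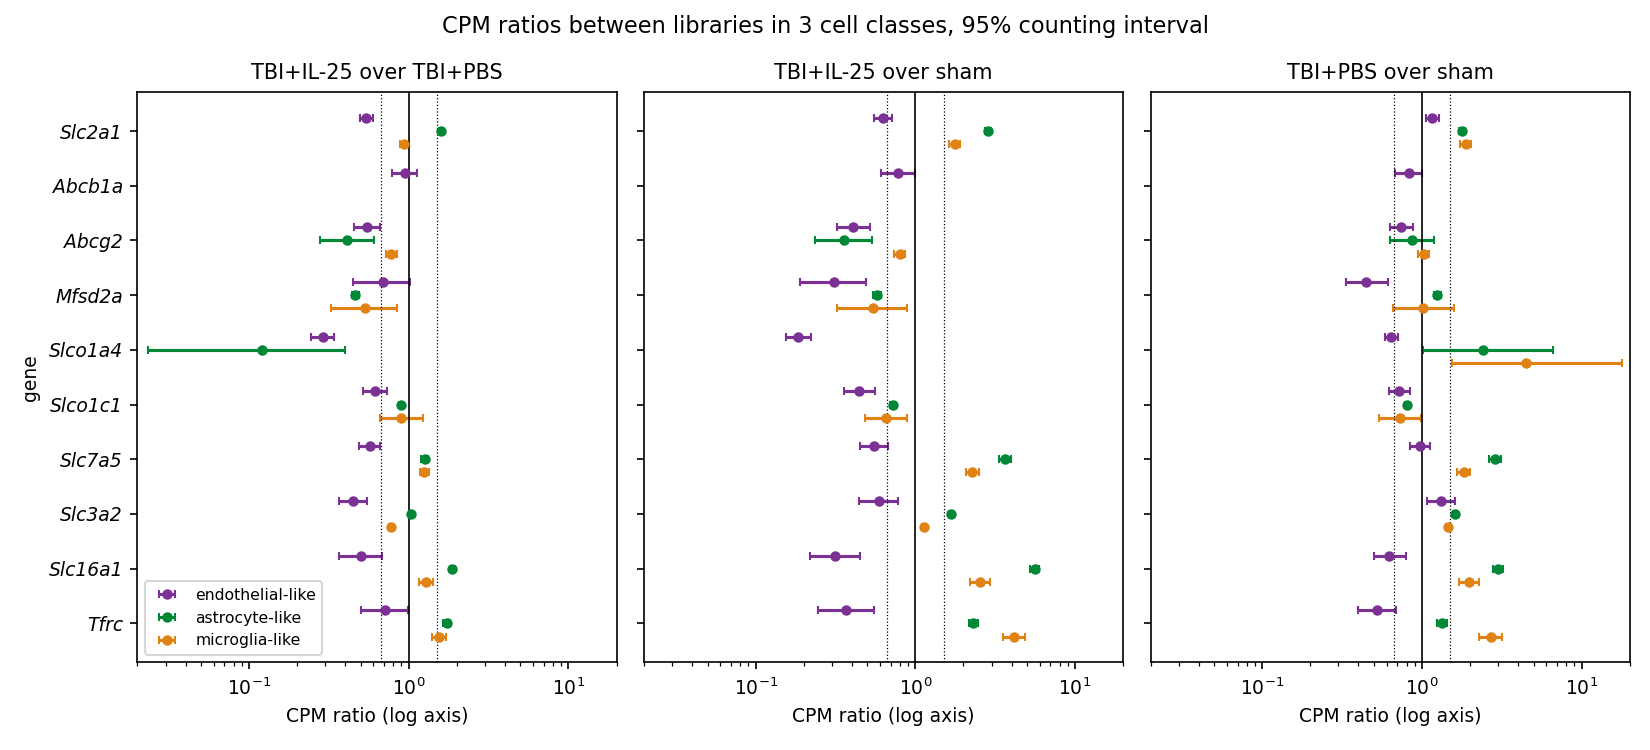
CPM ratios of the members with exact 95% intervals on a logarithmic axis, for TBI+IL-25 over TBI+PBS, TBI+IL-25 over sham and TBI+PBS over sham, in endothelial-like, astrocyte-like and microglia-like cells, with dotted lines at 1.5-fold in each direction. Slc16a1 and Slc2a1 lie below 1 in endothelial-like cells (0.505 and 0.542) and above 1 in astrocyte-like cells (1.87 and 1.6) for TBI+IL-25 over TBI+PBS.

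The astrocyte-like cells of the 3 libraries were spread over different clusters, which bears on these sums. In TBI+IL-25, 27.6% of them lay in 1 cluster led by Flnc, Il11 and Ptx3, which held 3.98% of the TBI+PBS and 0 of the sham cells. That cluster held 61.6% of the TBI+IL-25 and 19.5% of the TBI+PBS Slc2a1 UMIs of the class, with Slc2a1 at 923 CPM in TBI+IL-25 and 1073 CPM in TBI+PBS. A cluster led by Hapln1 and Gria2 held 9.18% of the TBI+IL-25, 12.5% of the TBI+PBS and 47.1% of the sham astrocyte-like cells, and one led by Agt 13.6%, 25.7% and 28.5%. Inside the Agt cluster Slc2a1 was at 239 CPM in TBI+IL-25, 366 CPM in TBI+PBS and 271 CPM in sham, and inside the Hapln1 cluster at 154, 187 and 197 CPM. The Slc2a1 order of the class was thus absent in these clusters. It was present in the other 2 clusters filled by all 3 libraries, at 383, 228 and 149 CPM in one led by Crym and Six3 and at 345, 271 and 155 CPM in a shallow one led by Scrg1.

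Slc16a1 in the Agt cluster was at 92.6, 89.4 and 82.5 CPM and in the Hapln1 cluster at 88.9, 74.8 and 66.7 CPM, in TBI+IL-25, TBI+PBS and sham. The order was kept there but the ratios were under 1.5-fold. In the Crym cluster it was at 245, 81.9 and 41.7 CPM, a wider spread than in the class as a whole. Tfrc was highest in TBI+IL-25 and lowest in sham in the Agt cluster (141, 99.5 and 88.2 CPM), the Hapln1 cluster (155, 118 and 76.7 CPM) and the Crym cluster (159, 134 and 75.9 CPM). Mfsd2a was lower in TBI+IL-25 than in TBI+PBS in all 7 clusters with at least 20 cells in both, for example at 143 and 306 CPM in the Agt cluster and 85.0 and 265 CPM in the Crym cluster.

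**Figure D5:**
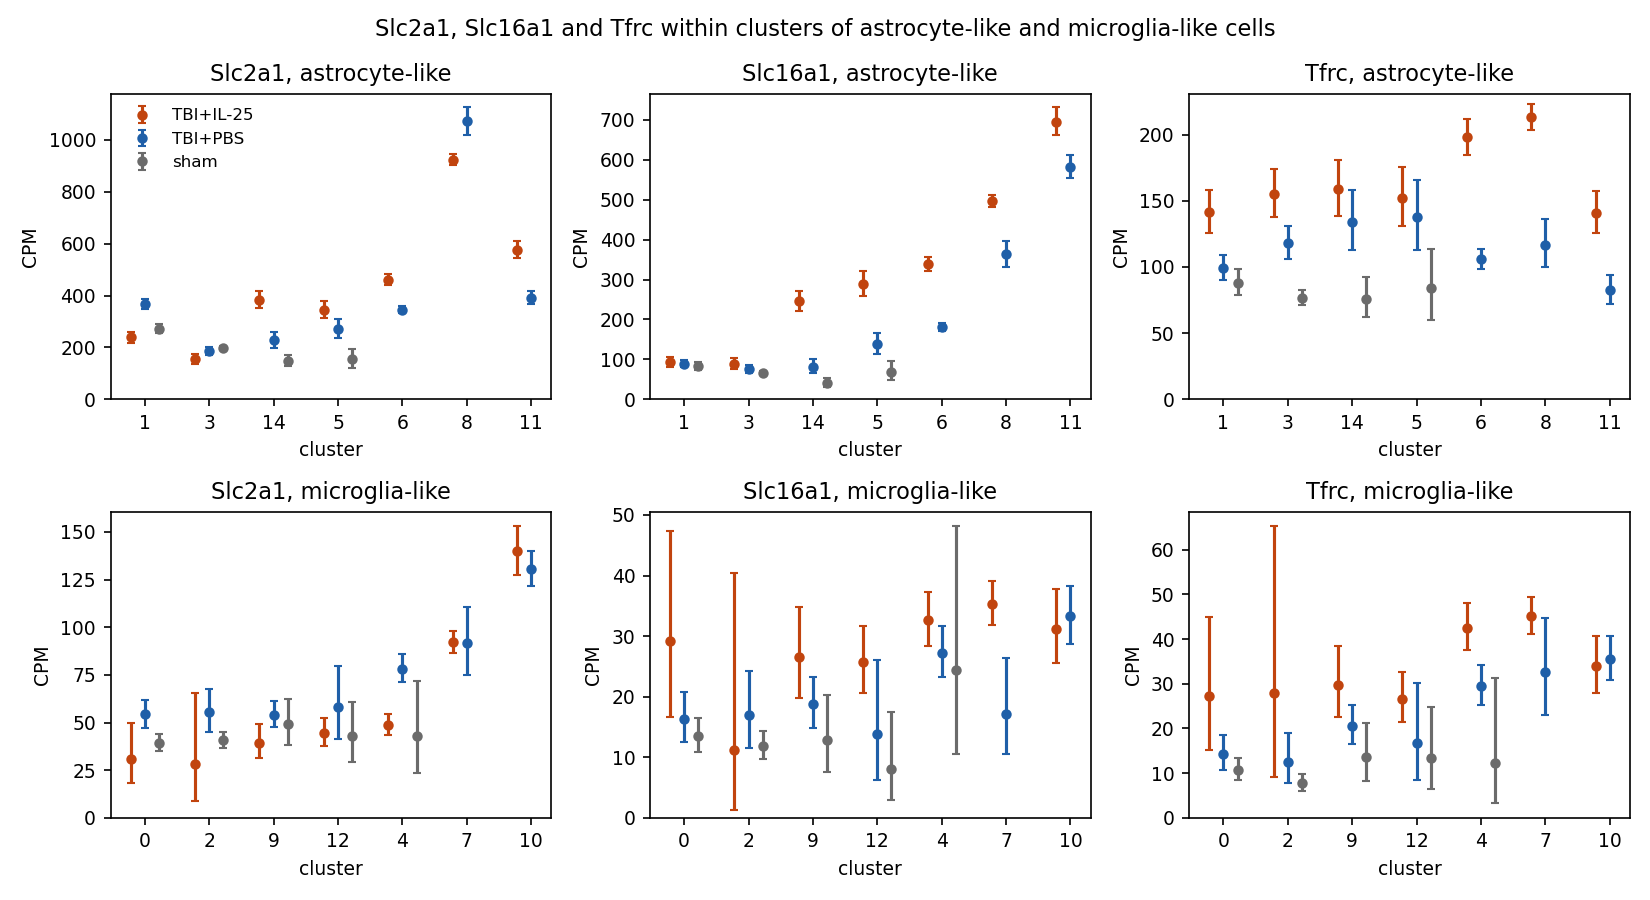
Slc2a1, Slc16a1 and Tfrc in CPM with exact 95% Poisson intervals inside astrocyte-like and microglia-like clusters, for TBI+IL-25, TBI+PBS and sham. A library is drawn where it has at least 20 cells in the cluster. Astrocyte-like cluster 28 and microglia-like clusters 17, 18 and 24 also held at least 20 cells of a library and are not drawn. In the cluster led by Flnc, filled by injured libraries alone, Slc2a1 stands at 923 and 1073 CPM, against 239, 366 and 271 CPM in the cluster led by Agt.

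In microglia-like cells Slc2a1, Slc7a5, Slc16a1 and Tfrc were higher in both injured libraries than in sham. Against sham, 4 of 8 measured members were at least 1.5-fold higher in TBI+IL-25 beside 19.7% of all genes, and 2 were lower (Mfsd2a and Slco1c1) beside 30.8%. For TBI+PBS over sham, 5 of 9 were higher (these 4 and Slco1a4) beside 13.6%, and 0 were lower beside 21.3%. Between the injured libraries 1 of 9 was higher in TBI+IL-25 (Tfrc) beside 13.1%, and 2 were lower (Mfsd2a and Slco1a4) beside 15.2%, near the background. Median log2 ratios of the members were 0.49, 0.87 and -0.12 in these comparisons, against -0.20, -0.16 and -0.06 for all genes.

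Tfrc was at 39.8 CPM in TBI+IL-25, 25.8 CPM in TBI+PBS and 9.59 CPM in sham. It had the widest spread of the members above trace level in this class, at 1.54 (1.4 to 1.7) for TBI+IL-25 over TBI+PBS, 4.15 (3.55 to 4.87) for TBI+IL-25 over sham and 2.69 (2.28 to 3.18) for TBI+PBS over sham. Slc7a5 was at 76.0, 60.8 and 33.4 CPM and Slc16a1 at 32.2, 25.1 and 12.8 CPM in TBI+IL-25, TBI+PBS and sham. Slc2a1 was at 74.0, 79.1 and 42.1 CPM, with 0.936 (0.88 to 0.996) for TBI+IL-25 over TBI+PBS and 1.76 (1.62 to 1.91) for TBI+IL-25 over sham. The injured libraries were thus alike in size for Slc2a1 and both above sham. Slc3a2 was highest in TBI+PBS at 609 CPM, against 470 CPM in TBI+IL-25 and 417 CPM in sham. Since Slc7a5 was higher in TBI+IL-25 and Slc3a2 lower, the ratio of Slc3a2 to Slc7a5 UMIs was 6.19 in TBI+IL-25, 10.0 in TBI+PBS and 12.5 in sham, a ratio of 2 genes that is not corrected for transcript length.

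Abcg2, carried by microglia among the pumps, was at 46.5 CPM in TBI+IL-25, 59.7 CPM in TBI+PBS and 58.3 CPM in sham, under 1.5-fold in every comparison. Mfsd2a was at 1.07, 2.03 and 1.99 CPM and Slco1c1 at 3.18, 3.54 and 4.85 CPM. Slco1a4 had 0, 23 and 4 UMIs in the class, where 0 UMIs allow up to 0.107 CPM by the same limit of 3 counts. These members were at trace levels in the same cells in which astrocyte markers (10 genes) summed to 488, 348 and 538 CPM and endothelial markers to 22.0, 25.1 and 40.2 CPM, with 2, 0 and 3 of 12 endothelial genes at 0. Their part in these levels was not tested.

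Microglia-like cells of the 3 libraries also filled different clusters. A cluster led by P2ry12 held 3.71% of the TBI+IL-25, 22.1% of the TBI+PBS and 39% of the sham cells, and the cluster numbered 2 held 0.922%, 10.3% and 44.8%. In TBI+IL-25, 34.2% lay in a cluster led by Hcar2, Ccl3 and Tnf, which held 3.9% of TBI+PBS and 0.22% of sham cells and gave 47.0% of the TBI+IL-25 microglial Slc2a1 UMIs. Inside the P2ry12 cluster Tfrc was at 27.3 CPM in TBI+IL-25, 14.2 CPM in TBI+PBS and 10.6 CPM in sham, the order of the class. Slc2a1 there was at 30.9, 54.2 and 39.3 CPM, so that TBI+IL-25 was not above sham. In the cluster led by Ccl12 and Gpr84, Tfrc was at 42.6, 29.4 and 12.2 CPM and Slc2a1 at 48.6, 78.3 and 42.8 CPM. No microglia-like cluster with at least 20 cells in both TBI+IL-25 and sham had Slc2a1 1.5-fold higher in TBI+IL-25.

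Among the smaller classes, oligodendrocyte-like cells carried Slc16a1 at 157 CPM in TBI+IL-25, 109 CPM in TBI+PBS and 161 CPM in sham, from 436, 237 and 74 UMIs. Their Tfrc was at 110 CPM in TBI+IL-25, 78.9 CPM in TBI+PBS and 30.4 CPM in sham, with 3.63 (2.13 to 6.72) for TBI+IL-25 over sham and 2.59 (1.5 to 4.84) for TBI+PBS over sham. Slc16a1 was thus lowest in TBI+PBS and Tfrc lowest in sham, where the class held 45 cells. Neuroblast-like cells had Tfrc at 64.4, 27.7 and 32.5 CPM in TBI+IL-25, TBI+PBS and sham, and TBI+IL-25 over TBI+PBS was 2.32 (1.54 to 3.51).

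Choroid plexus-like cells, the epithelium that makes cerebrospinal fluid, also carried both Slco genes. Slco1c1 was at 295 CPM in TBI+IL-25, 364 CPM in TBI+PBS and 343 CPM in sham, and Slco1a4 at 51.0, 88.3 and 82.0 CPM from 57, 48 and 38 UMIs. Slco1a4 was lower in TBI+IL-25 here too, at 0.578 (0.387 to 0.867) of TBI+PBS and 0.622 (0.405 to 0.964) of sham. Choroid plexus-like cells gave 26.1% of that library's Slco1a4 UMIs, against 6.65% in sham. Slc16a1 in this class was at 37.6 CPM in TBI+IL-25, about 11 CPM in TBI+PBS and 8.63 CPM in sham, with 3.41 (1.44 to 9.8) for TBI+IL-25 over TBI+PBS.

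Blood-derived and fibroblast-like cells were few, and their values are given for the injured libraries, which held at least 20 of them. T cell-like cells had Abcb1a at 54.5 CPM in TBI+IL-25 and 27.1 CPM in TBI+PBS, from 16 and 8 UMIs, with a ratio of 2.01 (0.811 to 5.42) that spans 1. Fibroblast-like cells had Slc16a1 at 191 CPM in TBI+IL-25 and 68.6 CPM in TBI+PBS, from 27 and 17 UMIs and with a ratio of 2.78 (1.46 to 5.44), while Abcg2 at 156 and 109 CPM had a ratio of 1.43 (0.774 to 2.6). Monocyte/macrophage-like cells had less Slc2a1 in TBI+IL-25 than in TBI+PBS, at 88.0 and 132 CPM and a ratio of 0.668 (0.492 to 0.893). They also had less Slc3a2, at 251 and 375 CPM and a ratio of 0.669 (0.56 to 0.793).

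Other barrier genes in endothelial-like cells were counted by the same rule from fixed lists. Over all genes this rule gave 23.3% lower and 15.7% higher for TBI+IL-25 over TBI+PBS, 21.5% and 24.1% for TBI+IL-25 over sham and 16.8% and 22.3% for TBI+PBS over sham, and the list counts below stand beside these shares. Of the other barrier solute carriers, 6 of 15 measured were at least 1.5-fold lower in TBI+IL-25 than in TBI+PBS and 0 higher, with a median log2 ratio of -0.47. The glutamine carrier Slc38a5 was at 32.5 CPM in TBI+IL-25 and 205 CPM in TBI+PBS, with a ratio of 0.158 (0.0629 to 0.332), and the organic anion carrier Slc22a8 at 102 and 356 CPM, with 0.287 (0.178 to 0.441). Against sham 7 of 12 were lower in TBI+IL-25, and in TBI+PBS over sham 4 of 16 were lower and 1 higher, with the iron exporter Slc40a1 at 262 CPM in TBI+PBS and 653 CPM in sham. Bsg, the chaperone of monocarboxylate carriers, was at 7142 CPM in TBI+IL-25, 14880 CPM in TBI+PBS and 16430 CPM in sham, a ratio of 0.48 (0.455 to 0.506) for TBI+IL-25 over TBI+PBS. In its list of other glucose and monocarboxylate carriers, 3 of 4 measured genes were lower and 1 higher.

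In the barrier Wnt and transcription programme, 5 of 15 genes were lower in TBI+IL-25 than in TBI+PBS and 0 higher, beside 23.3% and 15.7% of all genes. The Wnt target Apcdd1 was at 214 CPM in TBI+IL-25, 529 CPM in TBI+PBS and 752 CPM in sham, and the transcription factor Foxq1 at 381 and 648 CPM in TBI+IL-25 and TBI+PBS. Against sham 7 of 13 were lower in TBI+IL-25, beside 21.5% of all genes, and 4 of 15 in TBI+PBS, beside 16.8%, where 2 were higher, beside 22.3%. The median log2 ratios were -0.32 for TBI+IL-25 over TBI+PBS, -0.73 for TBI+IL-25 over sham and -0.29 for TBI+PBS over sham. The thyroid hormone handling list had 2 of 4 measured genes lower in TBI+IL-25 than in TBI+PBS, with the hormone-responsive factor Klf9 at 246 and 380 CPM, and the transcytosis list 1 of 7. Other ABC transporters gave 2 higher and 2 lower of 6, with Abcc4 at 88.2 CPM in TBI+IL-25 and 169 CPM in TBI+PBS and Abcc9, which is also a pericyte marker, at 190 and 32.8 CPM. The receptor list gave 1 higher and 2 lower of 6, with Lrp8 at 65.0 and 161 CPM. Amino acid response genes gave 3 higher and 0 lower of 7, with Atf4 at 260 and 144 CPM.

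Genes known to be induced by hypoxia-inducible factor were mostly higher in the injured libraries than in sham in these endothelial-like cells. In TBI+PBS over sham 7 of 9 measured targets were higher and 0 lower, in TBI+IL-25 over sham 5 of 7 and 0, and in TBI+IL-25 over TBI+PBS 2 of 9 and 0, with medians of 1.02, 1.13 and -0.03 on the log2 scale. Adm was at 567 CPM in TBI+IL-25, 580 CPM in TBI+PBS and 53.7 CPM in sham, and Ldha, the lactate dehydrogenase subunit, at 576, 709 and 192 CPM. Slc2a1, a gene also known as a target of the factor, was at 2136 CPM in TBI+IL-25, 3940 CPM in TBI+PBS and 3394 CPM in sham. It was thus higher than sham in TBI+PBS, under 1.5-fold, and lower in TBI+IL-25. Iron handling genes gave 7 higher and 1 lower of 11 in TBI+PBS over sham, with the ferritin gene Fth1 at 4363 CPM in TBI+PBS and 1881 CPM in sham, and 2 higher and 3 lower of 11 in TBI+IL-25 over TBI+PBS, with Hmox1 at 172 and 49.7 CPM. The venous list held Nr2f2, Vwf, Vcam1, Ackr1, Ephb4, Il1r1, Lcn2 and Icam1. It gave 5 higher and 1 lower of 8 in TBI+PBS over sham, and 1 higher and 3 lower of 8 in TBI+IL-25 over TBI+PBS. Lcn2, at 115 CPM in TBI+PBS and 7.68 CPM in sham, is also in the iron list and leads an astrocyte-like cluster, so these counts are not specific to veins. Of the 5 arterial genes measured, 2 were higher and 1 lower in TBI+IL-25 than in TBI+PBS.

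In astrocyte-like cells, where 19.7% of all genes were higher and 37.3% lower in TBI+IL-25 than in sham and 10.6% and 27.5% than in TBI+PBS, 7 of 11 hypoxia-inducible factor targets were higher and 1 lower in TBI+IL-25 than in sham, and 4 of 11 higher and 1 lower than in TBI+PBS, with median log2 ratios of 0.69 and 0.31. Adm was at 198 CPM in TBI+IL-25, 44.4 CPM in TBI+PBS and 2.1 CPM in sham, and the hexokinase gene Hk2 at 114, 46.3 and 11.1 CPM, in the order that Slc2a1 and Slc16a1 showed. Other glucose and monocarboxylate carriers did not go with them, with 2 higher and 6 lower of 11 in TBI+IL-25 over sham (median log2 ratio -0.66) and 1 higher and 3 lower of 11 in TBI+PBS over sham. The light-chain partners of Slc3a2 did not differ in one direction, with 1 higher and 2 lower of 5 in TBI+IL-25 over TBI+PBS. Slc7a10, an astrocyte carrier of small neutral amino acids, was at 337 CPM in TBI+IL-25, 1054 CPM in TBI+PBS and 1211 CPM in sham, while Slc7a8 was at 88.4, 43.8 and 10.6 CPM and the cystine carrier Slc7a11 at 440, 300 and 531 CPM. In the iron list 5 of 12 genes were higher and 2 lower in TBI+IL-25 than in sham, with the haem oxygenase gene Hmox1 at 721, 374 and 13.4 CPM and Fth1 at 4703, 3076 and 1820 CPM in TBI+IL-25, TBI+PBS and sham. The deiodinase gene Dio2, which activates thyroid hormone, was at 66.3, 124 and 182 CPM.

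In microglia-like cells, where 19.7% of all genes were higher and 30.8% lower in TBI+IL-25 than in sham and 13.1% and 15.2% than in TBI+PBS, 9 of 11 hypoxia-inducible factor targets were higher and 0 lower in TBI+IL-25 than in sham, and 4 of 11 higher and 0 lower than in TBI+PBS, with median log2 ratios of 1.96 and 0.41. Vegfa was at 41.6 CPM in TBI+IL-25, 12.0 CPM in TBI+PBS and 6.58 CPM in sham, and Pgk1, a glycolytic enzyme, at 222, 189 and 57.0 CPM. Proliferation genes were higher in TBI+IL-25 than in sham for 7 of 7 and than in TBI+PBS for 5 of 7, with median log2 ratios of 2.54 and 0.69 and Mki67 at 15.8, 7.04 and 0.612 CPM. Among other glucose and monocarboxylate carriers, 4 of 10 were higher and 3 lower in TBI+IL-25 than in sham. The lactate exporter Slc16a3 was at 137, 117 and 40.9 CPM and the fructose carrier Slc2a5, a microglial gene, at 119, 100 and 280 CPM. Slc7a11 was at 33.4, 13.7 and 6.88 CPM. In the iron list 4 of 11 were higher and 3 lower in TBI+IL-25 than in sham, with Slc40a1 at 62.9, 65.8 and 193 CPM and Fth1 at 8574, 5498 and 2226 CPM, beside the higher Tfrc.

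Over the 29 sums of a class and a library with at least 20 cells, the genes whose log2(CPM + 1) profile was most like that of a member were ranked by Pearson's r among 16965 genes. Slco1a4 was most like Flt1 (0.966), Ptprb (0.955) and Adgrl4 (0.95), and Abcb1a most like Itga1 (0.939), Itm2a (0.911) and Ctla2a (0.901). Profiles of members that astrocytes also carry at high level were led by other genes: Mfsd2a by Pcdh19 (0.866) and Slco1c1 by Ccdc141 (0.902). Tfrc was led by Sema7a (0.848), Slc2a1 by Shroom4 (0.876), Abcg2 by Tmem204 (0.879), Slc7a5 by Slc39a10 (0.886) and Slc3a2 by Srpr (0.844). Among the members themselves, r was 0.789 for Slco1a4 with Abcb1a, 0.775 for Mfsd2a with Slco1c1, 0.762 for Slc16a1 with Slc2a1 and 0.629 for the exchanger chains Slc7a5 and Slc3a2. The points share libraries, depth and cell makeup, so these values are descriptions and carry no p-value.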

How the data were processed

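Single-cell RNA was read from 3 libraries prepared with the 10x Chromium 3' v3.1 kit, per the labels' protocols. The deposited matrices hold whole, unscaled UMI counts, 1 value for a gene in a barcode. Per the file headers they were written by Cell Ranger 7.1.0 for TBI+PBS and sham and by Cell Ranger 7.2.0 for TBI+IL-25, while the submitters' processing notes name GRCm39 as the build and, as tools, Seurat 4.4.0, Cell Ranger 7.2.0 and bcl2fastq 5.0.1. How barcodes were selected is not given in the sources used here; the lowest deposited total was 500 UMIs in TBI+IL-25, 500 in TBI+PBS and 501 in sham.

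Everything else was computed from those counts with Python 3.11.15, scanpy 1.11.5, leidenalg 0.10.2, NumPy 2.4.6, SciPy 1.17.1 and pandas 2.3.3, and plotted with matplotlib 3.10.9. A barcode was kept as a cell from 500 UMIs and 300 genes upward, with no more than 20% of its UMIs mitochondrial. Scrublet's automatic threshold marked 654 TBI+IL-25, 254 TBI+PBS and 4 sham barcodes, so 1 score threshold of 0.2, known from earlier results, was used for all and removed 635, 301 and 211. Cells were clustered jointly on 2000 variable genes, 30 principal components and 15 neighbours with Leiden clustering at resolution 1. The members and the lists of other solute carriers, ABC transporters, Slc3a2 light chains and glucose and monocarboxylate carriers were left out. Genes found only in the other lists were not left out. A cluster was named from at least 3 markers, each in at least 20% of its cells and at least 2-fold above the median cluster. CPM is a gene's UMI sum in a class of 1 library over the class total, and ratios were formed for members or genes with at least 20 UMIs in the pair of libraries. The count rule of 1.5-fold and the intervals were run on simulated counts with known folds well past 1.5-fold. Those counts were Poisson, as the intervals assume, so this was a check of the code. Calls near 1.5-fold were not tried. No p-value is given, because each group is 1 library.

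The members, lists and tests were chosen with earlier results of these data known. All 10 members are named. From each list up to 4 genes could be named, those whose interval bound nearest to 1 was farthest from 1, and for likeness the 3 genes with the highest r, among genes with at least 100 UMIs. The likeness result of Slc16a1 is not reported here. Clusters were called by genes that lead them, for reference only. Alternatives were the scaling, the minimum count, Leiden resolution 0.5, doublets kept, classes set cell by cell from marker scores, cells weighed equally, cells with at least 1000 UMIs, cells with other markers left out and a 2-fold threshold. Within-cluster values and the pericyte and endothelial marker settings were added after the data were seen.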

Additional observations from a re-analysis of the deposited data

Results flagged for a closer look

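The members below differed in direction between cell classes in the same comparison: each ratio was at least 1.5-fold, with an interval clear of 1, and pointed one way in glia and the other in endothelial-like cells. The difference between classes was not tested, since each group is 1 library.

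With TBI+IL-25 set over TBI+PBS, Slc2a1 was 1.6 in astrocyte-like and 0.542 in endothelial-like cells, and Slc16a1 was 1.87 and 0.505. The Slc2a1 ratio was 0.651 and 0.823 within the astrocyte-like clusters 1 and 3, the other direction from the class as a whole, and 0.702 in endothelial-like cells without those holding other markers, under 1.5-fold. Astrocyte-like clusters 5, 6, 11 and 14 had more Slc2a1 in TBI+IL-25 than in TBI+PBS, and cluster 8 had less.

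With TBI+IL-25 set over sham, Slc2a1 was 2.84 in astrocyte-like, 1.76 in microglia-like and 0.629 in endothelial-like cells. Slc7a5 was 3.62, 2.28 and 0.553, Slc16a1 5.59, 2.53 and 0.316 and Tfrc 2.3, 4.15 and 0.37 in the same order of classes. Within astrocyte-like clusters 1 and 3 Slc2a1 was 0.88 and 0.78, and within microglia-like clusters 9 and 0 it was 0.805 and 0.787. In astrocyte-like clusters 5 and 14 Slc2a1 was higher in TBI+IL-25 (345 and 383 CPM) than in sham (155 and 149 CPM). In endothelial-like cells without those holding other markers it was 0.767, under 1.5-fold. Slc3a2 was 1.67 in astrocyte-like and 0.588 in endothelial-like cells, and 0.822 within astrocyte-like cluster 1.

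For TBI+PBS over sham, Slc16a1 was 2.98 in astrocyte-like, 1.97 in microglia-like and 0.625 in endothelial-like cells, and Tfrc was 2.69 in microglia-like and 0.519 in endothelial-like cells. Slco1a4 was 2.42 in astrocyte-like, 4.48 in microglia-like and 0.641 in endothelial-like cells, but its glial levels were traces, at 1.15 CPM in TBI+PBS and 0.475 CPM in sham astrocyte-like cells and 0.915 and 0.204 CPM in microglia-like cells. The endothelial-like calls of Slco1a4 and Slc16a1 in TBI+PBS over sham ended with median-of-ratios scaling (0.686 and 0.669) and at Leiden resolution 0.5 (0.749 and 0.73).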

How the results depend on the processing

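No paired analysis was possible because each group is 1 library, and for the same reason no library could be left out. All 10 members kept their highest class mean in endothelial-like cells under every alternative run for it. Of the member counts at 1.5-fold, 171 values stayed within 1.5 times and 33 moved, and the single-member ratios stayed within counting error in 545 cases, moved in 152 and reversed in 17. The cause was not tested beyond each setting's own construction. Shares of all genes are given for the main setting alone, so the counts under the alternatives below have no background beside them.

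In endothelial-like cells, the 4 members lower in TBI+PBS than in sham became 2 with median-of-ratios scaling, 2 at Leiden resolution 0.5 (Mfsd2a and Tfrc in both) and 1 at 2-fold. The 7 lower in TBI+IL-25 than in TBI+PBS became 3 without cells holding other markers and 2 at 2-fold (Slco1a4 and Slc3a2). Abcb1a for TBI+IL-25 over sham reversed to 1.03 without cells holding other markers. Over all settings the TBI+IL-25 over TBI+PBS ratio ran between 0.147 and 0.403 for Slco1a4 and between 0.284 and 0.702 for Slc2a1.

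In microglia-like cells, the count higher in TBI+PBS than in sham went to 2 at 2-fold and 0 within cluster 0 (the P2ry12 cluster), against 5, and the count lower to 1 by per-cell marker score and 1 with cells weighed equally, against 0. For TBI+IL-25 over TBI+PBS the count lower was 1 by per-cell score, 1 at 2-fold and 1 within cluster 0, against 2, and the count higher was 0 at 2-fold, 0 within cluster 9 and 3 within cluster 0, against 1. For TBI+IL-25 over sham the count lower was 1 with median-of-ratios scaling and 0 with doublets kept, at 2-fold and within clusters 9 and 0, against 2. Ratios that reversed were Slco1c1 for TBI+PBS over sham (1.71 within cluster 9, 1.14 within cluster 0) and, for TBI+IL-25 over sham, Mfsd2a (1.06 with doublets kept), Slc2a1 (0.805 within cluster 9, 0.787 within cluster 0) and Slc3a2 (0.809 within cluster 0).

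In astrocyte-like cells, the count higher in TBI+PBS than in sham was 3 at 2-fold, 1 within cluster 1 (the Agt cluster) and 2 within cluster 3 (the Hapln1 cluster), against 5. For TBI+IL-25 over TBI+PBS the count higher was 0 at 2-fold and within both clusters, against 3, and the count lower 1 within cluster 3, against 3. These within-cluster counts cover clusters 1 and 3 alone. In clusters 5, 6, 11 and 14 Slc2a1 was higher in TBI+IL-25 than in TBI+PBS. The CPM were 345 and 271, 461 and 344, 577 and 392, and 383 and 228. In cluster 8 it was lower, at 923 and 1073 CPM. Slc16a1 and Tfrc were higher in TBI+IL-25 in all of these, at 339 and 181 and at 198 and 106 CPM in cluster 6. For TBI+IL-25 over sham the count higher was 1 within cluster 1 and 2 within cluster 3, against 5, and the count lower 1 with median-of-ratios scaling, at 2-fold and within clusters 1 and 3, against 2. Slc2a1 reversed for TBI+PBS over sham (0.948 within cluster 3), for TBI+IL-25 over TBI+PBS (0.651 within cluster 1, 0.823 within cluster 3) and for TBI+IL-25 over sham (0.88 and 0.78). Slc3a2 reversed for TBI+IL-25 over TBI+PBS (0.975 with cells weighed equally, 0.735 and 0.844 within clusters 1 and 3) and for TBI+IL-25 over sham (0.822 within cluster 1), and Slco1c1 for TBI+IL-25 over TBI+PBS to 1.02 with median-of-ratios scaling.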
